A study of Mus musculus with 4 samples.

Results

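Cxcl9, Cxcl10, Cxcl11, Cxcl12, Cxcl13, Cxcl14 and Cxcl16 encode the ligands of the receptor CXCR3 and the homeostatic CXC chemokines. They were taken by gene symbol from the count table of tumor-associated macrophages (TAMs), as 7 of its 54146 genes. All 7 had counts in each of the 4 libraries and all 7 were among the 14688 genes with enough counts for a test. The cells, live CD11b+ F4/80+ cells within the CD45+ fraction, were sorted from subcutaneous tumors of MCA205, a mouse fibrosarcoma line, and poly-adenylated RNA of these cells was sequenced. The mice were females of 8 to 16 weeks of age, taken from C57BL/6 stock per the methods of the study. Control mice (labelled vehicle) gave 2 libraries, and mice offered propranolol, a nonselective blocker of beta-adrenergic receptors, at 0.5 g/L in their drinking water from the day of tumor cell injection gave the other 2. No other agent or genotype separated the groups. The libraries held 13798249 and 23018142 counts in control TAMs and 39818103 and 16424081 counts in TAMs from propranolol treated mice. The study calls the libraries biological replicates, and its methods do not say how many tumors were pooled in each.

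CXCL9, CXCL10 and CXCL11 are induced by interferons, above all by IFN-gamma, and attract activated T cells and NK cells that carry CXCR3. The other 4 have receptors of their own or none that is settled. CXCL12 acts on CXCR4 and on the scavenging receptor ACKR3 and is made in abundance by stromal cells, CXCL13 draws B cells through CXCR5, and CXCL16 is a membrane-bound ligand of CXCR6 that macrophages display and that proteases release. CXCL14 is made by epithelial and stromal cells and has no generally accepted receptor. In tumors, macrophages and dendritic cells are known sources of CXCL9 and CXCL10.

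Cxcl9, Cxcl10 and Cxcl11 lie side by side on chromosome 5 of GRCm38, all on the minus strand. Cxcl9 (ENSMUSG00000029417.9) spans chr5:92321347-92328079, Cxcl10 (ENSMUSG00000034855.13) spans chr5:92346638-92348889 and Cxcl11 (ENSMUSG00000060183.6) spans chr5:92359544-92365485. The gap is 18558 bases between Cxcl9 and Cxcl10 and 10654 bases between Cxcl10 and Cxcl11. Cxcl13 (ENSMUSG00000023078.6, chr5:95956951-95961068) is 3591465 bases farther along, and Cxcl12 (ENSMUSG00000061353.11, chr6:117168535-117181367), Cxcl14 (ENSMUSG00000021508.11, chr13:56288643-56296551) and Cxcl16 (ENSMUSG00000018920.11, chr11:70453983-70459984) are on other chromosomes. GENCODE M21 lists 6 of the genes as protein coding and Cxcl11 as a polymorphic pseudogene, because the reference strain, C57BL/6, carries an allele of Cxcl11 that gives no functional protein.

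The promoters of Cxcl9 and Cxcl10 are printed here since these neighbouring genes of one receptor had the 2 most different results among the abundant chemokines. Each sequence runs from 250 bases before to 50 bases after the RefSeq transcription start, 5′ to 3′ on the minus strand of GRCm38.p6, at chr5:92328030-92328329 for Cxcl9 and chr5:92348840-92349139 for Cxcl10. Capitals mark matches to any of 3 motifs searched on both strands.
Cxcl9: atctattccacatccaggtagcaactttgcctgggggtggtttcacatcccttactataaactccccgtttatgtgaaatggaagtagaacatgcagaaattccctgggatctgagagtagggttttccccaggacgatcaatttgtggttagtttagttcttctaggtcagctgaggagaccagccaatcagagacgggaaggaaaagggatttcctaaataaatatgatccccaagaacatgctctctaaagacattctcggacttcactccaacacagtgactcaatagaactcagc
Cxcl10: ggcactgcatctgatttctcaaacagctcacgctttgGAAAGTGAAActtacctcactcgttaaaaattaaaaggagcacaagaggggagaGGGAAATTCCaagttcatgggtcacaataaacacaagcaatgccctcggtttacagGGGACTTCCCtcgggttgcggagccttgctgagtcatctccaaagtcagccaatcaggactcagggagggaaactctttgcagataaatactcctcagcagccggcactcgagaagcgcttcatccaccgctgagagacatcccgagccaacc
The motifs were the interferon-stimulated response element (ISRE) as GAAA, any 2 bases and GAAA, the gamma-activated site (GAS) as TTC, any 3 bases and GAA and an NF-kB site as GGGA, any 2 bases, T, any base and CC. Cxcl10 held 1 ISRE match, GAAAGTGAAA, whose first base lies 213 bases before the start (position -213), and 2 NF-kB matches, GGGAAATTCC at -159 and GGGACTTCCC at -103. The window of Cxcl9 held no match, which says only that these letters are not in it. Of 32851 promoters of the same length, 3.44% held the ISRE letters, 8.3% the GAS letters and 4.01% the NF-kB letters. Promoters were at hand for 5 of the 7 chemokines. Among the other 3, Cxcl12 and Cxcl13 had no match and Cxcl14 held a GAS match, TTCTGAGAA at -191, and an ISRE match, GAAACAGAAA at -172. None of these matches overlapped another.

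Levels of different genes are compared as TPM, counts per kilobase of exon scaled to the same sum in every library. Cxcl16 had the highest mean over the 4 libraries (622 TPM, 198th among all genes), followed by Cxcl9 (412 TPM), Cxcl10 (353 TPM) and Cxcl14 (122 TPM). Cxcl11 (3.50 TPM), Cxcl12 (3.40 TPM) and Cxcl13 (2.17 TPM) were roughly 2 orders of magnitude lower than the first 3. The 4 most abundant chemokines made up between 99.2% and 99.7% of the summed TPM of all 7 in a library. In control TAMs, Cxcl16 (649 ± 38.6 TPM) and Cxcl9 (606 ± 13.6 TPM) differed by little more than their spread, and Cxcl11 (4.67 ± 0.144), Cxcl12 (4.83 ± 0.652) and Cxcl13 (3.87 ± 0.311) were close to each other. In TAMs from propranolol treated mice, Cxcl10 (358 ± 2.50 TPM) stood above Cxcl9 (219 ± 54.9 TPM), the reverse of the order in control TAMs, where Cxcl10 had 349 ± 6.19 TPM (SD, n = 2 libraries each).

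After propranolol, 3 of the 7 chemokines fell and 0 rose. Cxcl9 fell 2.33-fold, Cxcl12 fell 2.02-fold and Cxcl13 fell 5.71-fold, while Cxcl10, Cxcl11, Cxcl14 and Cxcl16 did not pass the test. Calls rest on the edgeR quasi-likelihood test over all 14688 genes and needed both an adjusted p under 0.05 and more than a 1.5-fold difference. By that rule 15.6% of all tested genes were lower and 12.2% were higher after propranolol. Log2 fold changes are of propranolol over control and are given with their standard error (SE). The median log2 fold change was -0.73 over the 7 chemokines and -0.02 over all tested genes. For all 7 chemokines the propranolol libraries lay both above or both below the control libraries, as they did for 72.6% of all tested genes. The plot of chemokine levels by library shows these values.

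**Figure D1:**
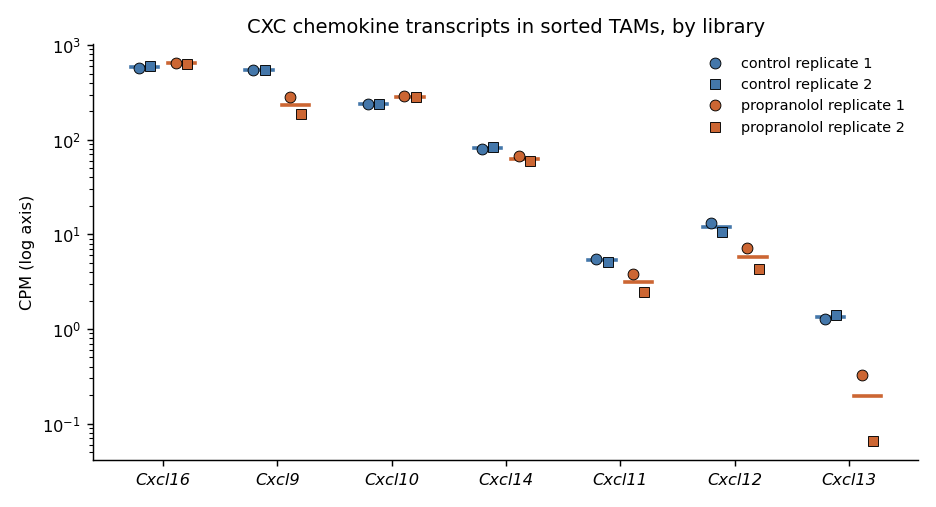
CPM (log axis) of the 7 chemokines in the 4 libraries, in order of mean TPM. Blue is control and orange propranolol, circles are replicate 1 and squares replicate 2, and short lines are group means. Cxcl9, Cxcl11, Cxcl12, Cxcl13 and Cxcl14 were lower in both propranolol libraries, while Cxcl10 and Cxcl16 lay slightly above control. Of these, Cxcl9, Cxcl12 and Cxcl13 were called.

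Among the CXCR3 ligands, Cxcl9 had 549.6 and 551 CPM in control TAMs (CPM are counts relative to a library size multiplied by its TMM factor) and 282 and 189 CPM in TAMs from propranolol treated mice. The control libraries were almost equal, both propranolol libraries were lower, and replicate 2 was the lower of them. Its log2 fold change was -1.22 (SE 0.16, edgeR adjusted p = 0.000340). With any 1 library left out it was between -1.54 and -0.93 and still called in each case.

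Cxcl10, the second CXCR3 ligand, had 237 and 236 CPM in control TAMs and 290.5 and 282 CPM after propranolol. Both propranolol libraries were above both control libraries, by less than the 1.5-fold limit. Its log2 fold change was 0.27 (SE 0.09, edgeR adjusted p = 0.0357), so that it passed on p and not on size, as part of the 42.2% of genes with an adjusted p under 0.05 at any fold. Left-out libraries gave adjusted p-values up to 0.139 in the edgeR test (range over all alternatives 0.000549 to 0.139).

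Cxcl11 had 82 and 129 counts in control and 139 and 38 counts in propranolol libraries, or 5.53 and 5.14 CPM against 3.82 and 2.49 CPM. The propranolol libraries were the lower ones and differed from each other more than the control libraries did. The log2 fold change of -0.73 (SE 0.31) did not pass (edgeR adjusted p = 0.0880). Without propranolol replicate 1 it was -1.09 and passed, and without propranolol replicate 2 it was -0.45 and did not. The highest edgeR adjusted p over its alternatives was 0.487, after the GC correction described below. The exons of Gm2673, a pseudogene on the other strand with 0 counts in all 4 libraries, cover 41.7% of the exon bases of Cxcl11. No strand option is stated for the counting, and by default a fragment that touches exons of both genes is counted for neither. The level of Cxcl11 may therefore be understated in all libraries.

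The makeup of the CXCR3 ligands differed between the groups. Cxcl9 made up 63.0% and 63.2% of their summed TPM in control libraries and 41.8% and 33.3% in propranolol libraries, while Cxcl10 went from 36.4% and 36.3% to 57.7% and 66.4%. Cxcl11 was between 0.348% and 0.504% in every library. The sum was 946 and 974 TPM in control and 616 and 541 TPM in propranolol libraries. The ratio of Cxcl9 to Cxcl10, in which the scaling of a library cancels, was 1.73 and 1.74 in control TAMs and 0.724 and 0.501 after propranolol. On the log2 scale the mean ratio was 0.80 ± 0.01 in control and -0.73 ± 0.38 in propranolol libraries (SD, n = 2 libraries each), 2.88-fold lower after propranolol (exact permutation test, two-sided, p = 0.3333, the smallest that 2 libraries against 2 allow).

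**Figure D2:**
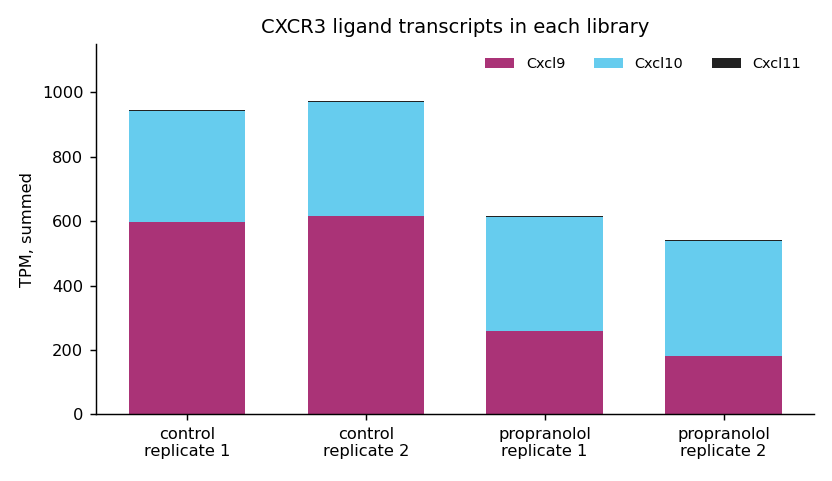
Summed TPM of Cxcl9, Cxcl10 and Cxcl11 in each library, as stacked bars from 0. The Cxcl9 part shrank from 596 and 616 TPM in the control libraries to 258 and 180.1 TPM in the propranolol libraries, the Cxcl10 part stayed between 345 and 359 TPM, and Cxcl11 is barely visible.

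Among the homeostatic chemokines, Cxcl12 had 13.2 and 10.6 CPM in control TAMs and 7.23 and 4.26 CPM in TAMs from propranolol treated mice. Each propranolol library was below each control library, with a spread in both groups. The log2 fold change was -1.01 (SE 0.27, edgeR adjusted p = 0.0129), and -0.68 without propranolol replicate 2 and -1.47 without propranolol replicate 1, each still called.

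Cxcl13, the B cell attractant, had 19 and 35 counts in control libraries and 12 and 1 counts in propranolol libraries, which is 1.28 and 1.40 CPM against 0.330 and 0.0655 CPM. Of the 13 propranolol counts, all but 1 were in replicate 1. The log2 fold change was -2.51 (SE 0.71, edgeR adjusted p = 0.0167). Pooled over each group, the counts per TMM-scaled library size were 5.37-fold lower, with an exact 95% interval of 2.89 to 10.7 that covers counting error only. The call was lost without control replicate 2 (log2 fold change -2.47, adjusted p = 0.0788) and without propranolol replicate 2 (-1.98, adjusted p = 0.0747) in the edgeR test, against a range of 0.00331 to 0.0914 over all alternatives, and the log2 fold change was -4.22 without propranolol replicate 1.

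Cxcl14 had 79.3 and 83.3 CPM in control TAMs and 67.2 and 58.9 CPM after propranolol, both below the control libraries. Its log2 fold change of -0.36 (SE 0.11, edgeR adjusted p = 0.0238) was under the 1.5-fold limit.

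Cxcl16, the most abundant of the 7, had 574 and 606 CPM in control TAMs and 649 and 631 CPM after propranolol. The groups were separated by less than the distance between the control libraries. The log2 fold change was 0.12 (SE 0.09, edgeR adjusted p = 0.325, range over the alternatives 0.187 to 0.621). On TPM, which has no TMM scaling, its log2 difference was -0.12, but there the median of all tested genes lay at -0.25, so that both scales place Cxcl16 slightly above the middle of all genes. Cxcl10 had a log2 TPM difference of 0.04 on the same scale, and Cxcl9 one of -1.49. The exons of Zmynd15, on the other strand, cover 18.3% of those of Cxcl16, and those of Art3 cover 5.91% of those of Cxcl10.

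Across all genes, fold changes were higher where GC content was higher (rank correlation 0.577 over 14681 genes, which are not independent replicates), and the chemokines differ in GC content, from 41.0% for Cxcl13 and 43.2% for Cxcl9 to 47.1% for Cxcl10, 50.7% for Cxcl12 and 55.4% for Cxcl14. When a smooth trend with GC content was removed from each library, 4.97% of all tested genes were lower and 7.64% higher. Cxcl9 was then still called lower (log2 fold change -0.70, edgeR adjusted p = 0.0076), as was Cxcl12 (-1.07, adjusted p = 0.0194). The call of Cxcl13 was lost (-1.79, edgeR adjusted p = 0.0914) and Cxcl14 was called lower (-0.66, adjusted p = 0.00337). Cxcl10 had 0.50 (edgeR adjusted p = 0.00431), under the 1.5-fold limit, Cxcl11 had -0.32 and Cxcl16 had 0.13. The log2 fold change of Cxcl9 minus that of Cxcl10 was -1.496 before and -1.20 after this correction.

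**Figure D3:**
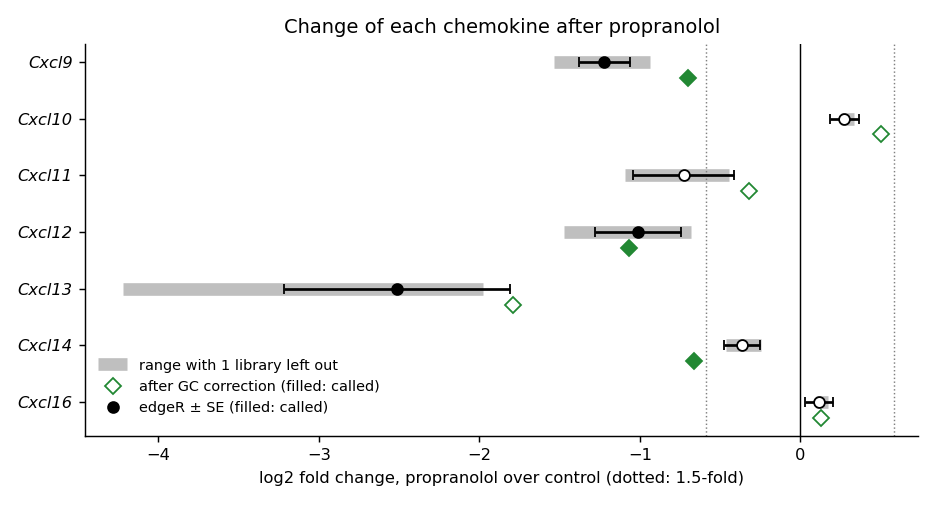
Log2 fold change (propranolol over control) of each chemokine. Black circles with bars are the edgeR value ± SE, grey bands span the fits with 1 library left out, green diamonds follow the GC correction, filled symbols were called, and dotted lines mark 1.5-fold. Cxcl9 and Cxcl12 are filled on both, Cxcl13 only before and Cxcl14 only after the correction.

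Receptors of these ligands were detected at levels from 0.239 CPM upward, and 1 of the 5 listed passed the test. Cxcr6, the receptor of CXCL16 on T cells and NK cells, fell from 17.8 and 22.7 CPM to 4.68 and 3.14 CPM. Its log2 fold change was -2.34 (SE 0.24, edgeR adjusted p = 0.000128), and -1.80 after the GC correction. Cxcr3 had 6.74 and 7.02 CPM in control and 7.84 and 8.84 CPM in propranolol libraries (log2 fold change 0.27, edgeR adjusted p = 0.349). Cxcr4, the receptor of CXCL12 and the most abundant of the 5, had 155.4 and 150.0 CPM against 166.5 and 212 CPM (log2 fold change 0.31, not called, and 0.61, called higher, after the GC correction). Cxcr5 (0.607 and 0.598 CPM against 1.35 and 1.64) and Ackr3 (1.55 and 0.239 against 1.05 and 1.18) were near the limit of detection and did not pass.

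The proteases that process these ligands include DPP4, which trims CXCL9, CXCL10, CXCL11 and CXCL12, and ADAM10 and ADAM17, which release CXCL16 from the membrane. Of these 3 genes, 2 were called lower and 0 higher. Dpp4 fell from 11.5 and 12.1 CPM to 5.53 and 4.19 CPM (log2 fold change -1.26, SE 0.23, edgeR adjusted p = 0.00176). Adam10 fell from 383 and 349 CPM to 237 and 208 CPM (log2 fold change -0.72, SE 0.11). Neither was called after the GC correction, where Dpp4 had -0.63 and Adam10 had -0.08. Adam17 had a log2 fold change of -0.18 and did not pass.

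Ifng, which encodes the main inducer of the CXCR3 ligands, had 131 and 200 counts in control libraries and 97 and 16 counts in propranolol libraries. At 8.83 and 7.97 CPM against 2.67 and 1.05 CPM it was lower in both propranolol libraries, and lowest in replicate 2. Its log2 fold change was -2.09 (SE 0.38, edgeR adjusted p = 0.00191), and -1.59 after the GC correction, still called. In the list of 9 genes of IFN-gamma signalling, 2 were lower and 0 higher, beside 15.6% lower and 12.2% higher among all tested genes. The other fallen gene was Jak2, a kinase of the IFN-gamma receptor (log2 fold change -0.69, and -0.26 and not called after the GC correction). Irf1 (0.26), a transcription factor of the pathway, the receptor genes Ifngr1 (-0.20) and Ifngr2 (-0.32), Jak1 (-0.08), Irf8 (0.30) and the feedback inhibitor Socs1 (0.02) were not called.

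Of 26 listed genes induced by IFN-gamma, 25 were tested, and 9 were lower, 3 higher and 13 not called (median log2 fold change -0.40). Of all tested genes 15.6% were lower and 12.2% higher, so that the 3 higher genes were near the share of all genes. The fallen genes were the guanylate-binding protein genes Gbp2, Gbp2b, Gbp4, Gbp5, Gbp6 and Gbp7, the GTPase genes Iigp1 and Tgtp2, and Ubd, which encodes a ubiquitin-like protein. The fall was largest in Ubd (-2.53, at 16 and 19 against 6 and 2 counts) and Gbp2b (-1.98). The risen genes were the immunoproteasome gene Psmb9 (0.62), Nos2 (0.64), which encodes the inducible nitric oxide synthase, and Upp1 (2.83-fold higher), which encodes a uridine phosphorylase. Ido1 had too few counts for a test. The most abundant members were Tap1 (log2 fold change 0.16), Psmb8 (0.47) and Psmb9. Summed over the list, the level was 3009 and 3175 CPM in control and 3026 and 2674 CPM in propranolol libraries. After the GC correction 3 genes of this list were lower and 1 was higher, all of them among those called before. Gbp2b (-1.51) and Upp1 (1.31) were still called then, and Ubd (-1.98), Psmb9 (0.36) and Nos2 (0.39) were not. The call of Ubd was also lost with any 1 library left out (edgeR adjusted p up to 0.21).

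Of the 27 listed genes induced by type I interferon, 7 were higher, 3 lower and 17 not called (median log2 fold change 0.25). Of all tested genes 12.2% were higher and 15.6% lower, so that the 3 lower genes were under the share of all genes. Oasl1 rose by 1.03 on the log2 scale and Irf7, a transcription factor of this response and the most abundant gene of the list, by 0.76, while Ifit2 fell by 1.03 on that scale. Stat2 (0.28) and Oasl2 (0.25) were not called. The summed level was 2266 and 2221 CPM in control and 2862 and 2868 CPM in propranolol libraries. After the GC correction 6 genes were higher, 4 of them among the 7 called before, and 0 were lower. Oasl1 (0.71) was still called then, and Irf7 (0.46) and Ifit2 (-0.38) were not. Both interferon lists were read with these results known, and no test relates them to the chemokines.

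**Figure D4:**
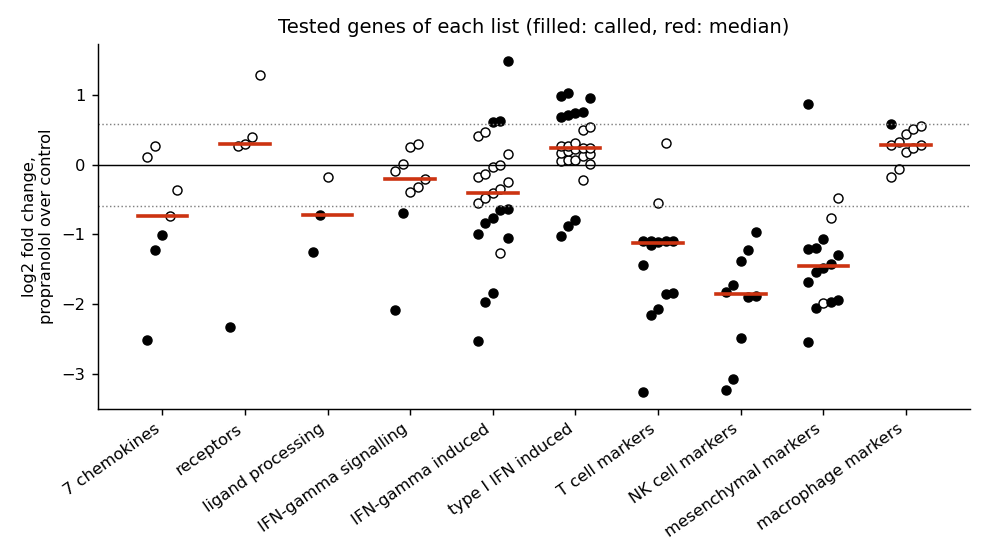
Log2 fold change (propranolol over control) of each tested gene in 10 lists. Filled points were called, red lines are medians and dotted lines mark 1.5-fold. The IFN-gamma induced list has more filled points below than above 0 and the type I list more above than below, while nearly all T cell, NK cell and mesenchymal markers lie below 0.

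Markers of other cell types that can carry or induce these chemokines moved between the groups. In bulk RNA, fewer cells of a type and less RNA per cell cannot be told apart. The selection of CD45+ cells would remove stromal, endothelial and tumor cells, and the sort of live CD11b+ F4/80+ cells would also remove T cells, B cells, most NK cells and neutrophils. The methods state that the purity of sorted samples was checked. The TAM label was borne by Lyz2 (5889 and 5226 CPM in control, 7569 and 5961 CPM in propranolol libraries), C1qa and C1qb. All 11 macrophage markers were detected, with a summed level of 23033 and 22081 CPM in control and 28883 and 26112 CPM in propranolol libraries, and 1 of them, Csf1r, which encodes the receptor of the macrophage growth factor CSF1, was called, higher (0.59). After the GC correction Csf1r (0.32) was not called and Mrc1 (0.85), a mannose receptor gene, was the 1 marker called higher. Without propranolol replicate 2, Csf1r (0.55) was under the 1.5-fold limit and C1qb (0.593, against 0.515 with all libraries) was above it.

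T cell markers summed to 311 and 358 CPM in control TAMs and 163 and 92.2 CPM after propranolol, with 12 of 14 genes called lower and 0 higher. Their most abundant gene, Cd8a, had 71.0 and 86.8 CPM against 29.4 and 13.4 CPM, and the next most abundant, Lck (log2 fold change -1.09) and Cd3e (-1.43), fell too, with the largest falls in Themis (-3.27) and Trbc2 (-2.15). Cd4 went the other way (13.2 and 13.4 CPM against 16.3 and 17.0 CPM). By flow cytometry of whole MCA205 tumors, the study found more CD4+ T cells after propranolol and a trend to more CD8+ T cells. RNA of sorted TAMs does not measure T cell numbers in the tumors. NK cell markers summed to 267 and 271 CPM against 113 and 57.4 CPM, with 10 of 10 called lower, led in abundance by Gzmb (log2 fold change -1.38), Prf1 (-1.22) and Klrk1 (-1.88) and with the largest falls in Klrd1 (-3.24) and Klrc1 (-3.08). The list does not separate NK cells from T cells that express the same genes. After the GC correction 12 T cell markers and 7 NK cell markers were lower, and Klrk1 (-0.05) was not called. The corrected log2 fold changes were -1.86 for Klrd1, -1.78 for Klrc1 and -2.24 for Themis. In both lists none was at 0, and the level was lowest in propranolol replicate 2, as for Ifng, Cxcl9, Cxcl11, Cxcl12, Cxcl13, Cxcl14 and the summed dendritic cell markers. Adam10, Jak2 and the genes nearest in profile to Cxcl9 and Cxcl12, named below, were lowest there too. The share of all genes with this order was not counted, so the order does not link these genes. The part of T cells and NK cells in the fall of Cxcl9 was not tested.

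Mesenchymal markers, which fibroblasts and the fibrosarcoma cells themselves express, were called lower in 12 of 16 cases and higher in 1. The risen one, Fn1, which encodes fibronectin, was the most abundant and is also made by macrophages. Without it the list summed to 4005 and 1535 CPM in control and 889 and 937 CPM in propranolol libraries, and none of its genes was at 0. Control replicate 1 stood apart here, as in Col3a1 (1294 and 423 CPM in control, 212 and 225 CPM in propranolol libraries). It did not in Thy1, which is among the 12 called lower (82.5 and 86.1 CPM in control, 45.9 and 25.9 CPM in propranolol libraries). Col1a1 had a log2 fold change of -1.29, and the largest falls were those of Postn (-2.54) and Dcn (-2.06), which were not called after the GC correction. Without control replicate 1 only 6 of the 16 were called lower, Col1a1 (-0.46) was not, and Col3a1 had -0.90, Postn -1.40 and Dcn -1.12. With that library left out, the log2 fold change of Cxcl12 was -0.79 and still called, and that of Cxcl14 was -0.34. The part of stromal cells in the levels of Cxcl12 and Cxcl14 was not tested.

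Among 10 dendritic cell markers, 4 were lower and 0 higher, and the count of lower ones moved in both directions with 1 library left out. Clec9a (-1.52) and Xcr1 (-1.30), markers of the cross-presenting subset, fell, as did Fscn1 (-0.65), while the most abundant, Itgax, had a log2 fold change of -0.01 and Batf3 one of 0.07. After the GC correction Clec9a and Fscn1 were called lower and Xcr1 (-0.67) was not. Fscn1 lost its call without control replicate 1 (-0.28) and Clec9a without control replicate 2 (-1.15). The list summed to 559.5 and 617 CPM in control and 587 and 524 CPM in propranolol libraries, and without Itgax, which holds most of it, to 109 and 96.0 CPM against 77.7 and 65.6 CPM. B cell markers had 3 of 9 genes with enough counts, of which Ms4a1 was lower (15 and 25 against 6 and 2 counts) and Cd79b higher. The list summed to 11.6 and 14.3 CPM against 20.8 and 20.6 CPM, most of it Cd79b, and without that gene to 2.90 and 2.51 CPM against 1.43 and 4.58 CPM. Cd79a had too few counts for a test. Endothelial markers summed to 56.0 and 50.5 CPM against 66.2 and 66.1 CPM, with 1 of 8 tested genes, Cdh5, higher. That is near the 12.2% of all tested genes that were higher. The more abundant Pecam1 (0.24), Vwf (0.49) and Kdr (0.64) were not called. Without propranolol replicate 1 Vwf had 0.88 and Kdr 0.48, and without propranolol replicate 2 they had 0.07 and 0.81. After the GC correction Ms4a1 (-1.90), Cd79b (0.52) and Cdh5 (0.61) were not called either. Ms4a1 and Cdh5 were then still over the 1.5-fold limit and did not pass on p (edgeR adjusted p = 0.0774 and 0.116). Ms4a1 also lost its call with each of the 4 libraries left out in turn (log2 fold change -2.87 to -2.54, against -2.67 with all). Cdh5 lost its call with any library but control replicate 1 left out (0.60 to 0.78, against 0.77). In these fits both genes stayed over the 1.5-fold limit. The part of these cells in the chemokine levels was not tested.

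**Figure D5:**
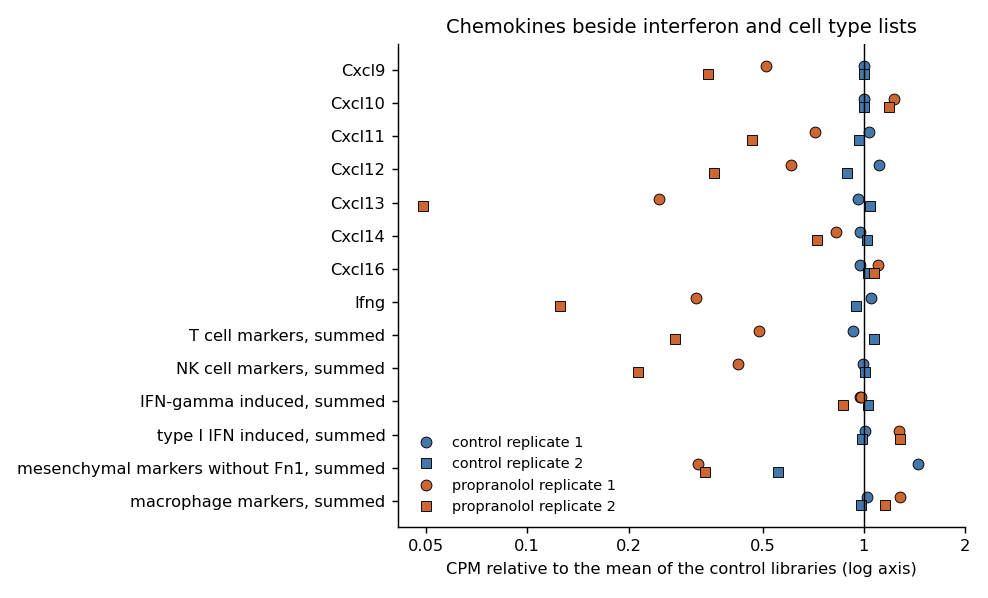
CPM of each chemokine, of Ifng and of summed lists in each library, relative to the mean of the control libraries (log axis). Colours and symbols are as in the plot of chemokine levels. Cxcl9 lay at 0.512 and 0.344 in the propranolol libraries, T cell markers at 0.486 and 0.275, NK cell markers at 0.421 and 0.213, and Cxcl10 at 1.23 and 1.19.

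The genes next to the CXCR3 ligands had mixed values. Sdad1, on the far side of Cxcl9, had a log2 fold change of -0.07 and Nup54, beyond Cxcl11, one of -0.36, and neither was called. Art3, which spans Cxcl10 and Cxcl11 on the other strand, had 53 and 53 counts in control and 26 and 9 counts in propranolol libraries (log2 fold change -2.08, edgeR adjusted p = 0.00754). Without strand, its reads and those of Cxcl10 cannot be told apart where their exons overlap. Cnot6l, beyond Cxcl13, fell (-1.02), but had 0.14 and was not called after the GC correction. Around Cxcl16, Med11 (0.58) and Tm4sf5 (0.37) were not called, nor was Zfp637 (-0.29) next to Cxcl12. Tmem72, the other neighbour of Cxcl12, had too few counts for a test, and E330014E10Rik beside Cxcl13 and Neurog1 and Gm3045 beside Cxcl14 had 0 counts.

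Over the 4 libraries, the profiles most like that of Cxcl9 among 8861 other genes of at least 10 CPM were those of Brix1, Fyttd1 and Appl1, at Euclidean distances of 0.0769, 0.0864 and 0.0901 between centred log2 CPM values. For Cxcl12 they were Gnb4 (0.0545), Bzw1 (0.0730) and Ms4a4c (0.0870). For Cxcl10 they were Usp4 (0.00919), Erf (0.0147) and Tpm3 (0.0172), and for Cxcl16 Lpcat4 (0.0110), Srp9 (0.0162) and Atxn7l3 (0.0224). With only 4 libraries many genes share such profiles.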

How the data were processed

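The data were counts of fragments per gene, which the authors deposited as whole numbers without normalization for 4 TAM libraries. According to the methods and the submitters' processing notes, reads were aligned to mm10 with STAR 2.7.1a, filtered on mapping quality with SAMtools 1.9 and counted on GENCODE exons with featureCounts 1.6.4 for read pairs. The release of the annotation and the strand are not given in the sources used here. Columns were matched to libraries by the number in the labels.

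Genes were matched by identifier to GENCODE M21 on GRCm38 (54079 of 54146). Promoters came from RefSeq (GRCm38.p6), with 5 of 7 chemokines matched. R 4.3.3 and edgeR 4.0.16 were used. Genes were filtered with filterByExpr (minimum count 10), scaled with TMM and compared between groups with the quasi-likelihood test and Benjamini-Hochberg adjustment over all tested genes. The SE of a log2 fold change is its size divided by the square root of the F statistic. TPM used the length of all exons of a gene, without TMM. The GC correction removed a natural spline on GC content with 5 degrees of freedom, fitted to the log2 CPM deviations of a library and entered as offsets. Alternatives were DESeq2 1.42.0 (Wald test, size factors), upper-quartile factors, limma-voom (limma 3.58.1), other count filters, each library left out (a group left with 1 library then borrows its spread from the other), a replicate block, and a log2 limit of 1.5, as the methods word the criterion. The TPM differences and the counts of markers with a library left out were added after seeing the data.

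P-values measure the spread between 2 libraries a group, which differed by more than sampling noise (chi-square per degree of freedom 11.8 between control and 15.1 between propranolol libraries). The chemokines and gene lists were chosen with earlier results of these data known. Named were the 7 chemokines, all receptors, proteases and IFN-gamma signalling genes, of each other list the 3 most abundant and the 2 most changed genes, neighbours in the annotation and 3 nearest profiles for each of 4 chemokines, with 1 gene not reported here. Cd4, Thy1 and the other called genes of the IFN-gamma list were named after their values were seen.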

Additional observations from a re-analysis of the deposited data

How the results depend on the processing

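All directions of the 7 chemokines held in the 13 alternative fits of each, and of these 91 values 84 kept their side of the threshold. The rest were the losses and gains of calls of Cxcl11, Cxcl13 and Cxcl14 given above and 2 in the fit that joined the GC correction with the replicate block, where Cxcl13 (-1.89) was not called and Cxcl14 (-0.67) was. The number of fallen chemokines was 3 in every fit except those with a library left out (2 to 4), and 0 rose in any. Requiring a log2 fold change over 1.5 left 1 fallen chemokine, Cxcl13, and of all genes 61 higher and 667 lower, of the IFN-gamma induced genes 1 higher and 3 lower, and of the type I genes 0 in either direction. The GC correction left 1121 genes higher and 730 lower, 669 and 637 of them called in that direction before, with 1 higher and 3 lower IFN-gamma induced genes and 0 lower type I genes, and with the replicate block 1180, 940, 1, 4 and 0. Upper-quartile factors left 1 higher IFN-gamma induced gene and moved the split of all genes to 1417 higher and 2533 lower, while without a count filter it was 2321 and 2145. DESeq2 gave 1847 and 1874. With a library left out, all genes gave 1837 to 2119 higher and 1664 to 2305 lower, IFN-gamma induced genes 2 to 4 and 7 to 10, and type I genes 7 to 9 and 3 in each. The log2 difference of the ratio of Cxcl9 to Cxcl10 (-1.53) was -1.79 to -1.26. Cnot6l had 0.143 after the GC correction and 0.139 with the replicate block added, opposite in sign to its fall. The cause of these shifts was not tested beyond the trend with GC content that the correction removes.

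The replicate number is shared by the groups, but no label ties it to a litter, batch or day, and with 2 pairs the correlation of deviations (0.169) does not settle it. With the number as a block 1867 genes were higher and 2495 lower, and 3 chemokines were lower, the same 3, and 0 higher. Depth limits Cxcl13 most, at 1 count in propranolol replicate 2.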

Other observations

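The other CXC ligands act mainly on the neutrophil receptor CXCR2 or are stored in platelets. Those with enough counts for a test moved opposite to the fallen chemokines, while Cxcl5, Cxcl15 and Cxcl17 had too few. Of 8 listed, 5 had enough counts, and all 5 were higher, with a median log2 fold change of 1.44. Pf4 was the most abundant (148 ± 10.2 CPM in control TAMs and 267 ± 23.7 CPM after propranolol, SD, n = 2 libraries each), Cxcl2 had a log2 fold change of 1.44, Ppbp one of 2.25 and Cxcl3 one of 3.25. Cxcl1 had a log2 fold change of 1.02 (0.90 to 1.44 over the alternatives) and lost its call in at least 1 alternative. All 5 were also called higher after the GC correction. Their summed level was 223 and 219 CPM in control and 488 and 504 CPM in propranolol libraries, against 1460 and 1494 CPM and 1299.8 and 1167 CPM for the 7 chemokines described here. Of 10 neutrophil markers, 7 were tested and 5 were higher and 0 lower, with S100a9 (2.04), S100a8 (1.33) and Mmp9 (1.09) among them. The most abundant, Csf3r (0.56), was not called, and with 1 library left out it had 0.42 to 0.80, on both sides of the 1.5-fold limit. The list summed to 179 and 196 CPM in control and 352 and 379 CPM in propranolol libraries. The sort on F4/80 is a step that would remove neutrophils, and their part in these levels was not tested.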
